A study of Rattus norvegicus with 40 samples.

Results

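Alpha-fetoprotein, glypican-3 and a handful of other genes are read in the clinic or the laboratory as signs of hepatocellular carcinoma (HCC), and 7 such genes were followed here in a rat model. They were chosen by symbol: Afp, Gpc3, Mdk, Spink1, Golm1, Dlk1 and Lcn2. The count tables held a row for 6 of them among 17337 genes, and Golm1, which encodes the Golgi membrane protein GP73, was not analysed here. Fischer 344 male rats, 7 weeks old at the start, were given the liver carcinogen diethylnitrosamine (DEN) in the peritoneum, 50 mg/kg once a week in olive oil. Liver RNA was sequenced after 8 weeks of DEN, after 14 weeks of DEN, and at 20 weeks, when rats had received 14 weeks of DEN and then 6 weeks without it. Non-tumoral (NT) liver was taken from 4 DEN-treated rats at each time, and at 14 and 20 weeks 2 tumor nodules were taken from each of the same rats. Liver of 4 age-matched rats that received no DEN formed the control group at each time, giving 40 libraries from 24 rats. All rats were of 1 strain and 1 sex, and NT liver came from livers that also carried nodules at 14 and 20 weeks.

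Alpha-fetoprotein is the main plasma protein of the fetus, made by fetal liver and yolk sac, and its gene is strongly repressed after birth. Glypican-3 is a heparan sulfate proteoglycan of the cell surface that is present in fetal liver and absent from most adult hepatocytes, and Dlk1 is a membrane protein of hepatoblasts, encoded by an imprinted gene. Midkine (Mdk) is a heparin-binding growth factor of the embryo, Spink1 is a secreted trypsin inhibitor, and Lcn2 is a small secreted protein that captures bacterial iron carriers and is released by neutrophils and injured epithelium. In humans these genes are used or studied as tissue or serum markers of liver cancer.

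Between 20528515 and 160622633 read pairs were counted per library (median 30477421), so that 1 CPM (counts per 1000000 counted pairs) stood for about 30.5 pairs at median depth. The largest library, NT liver of rat H26 at 20 weeks, held 4.08 times the pairs of the next. None of 8 hepatocyte genes was absent from any group. Their summed level had medians of 295500 to 315300 CPM in the no DEN groups, 210900 to 279000 CPM in NT liver and 182800 and 203000 CPM in nodules at 14 and 20 weeks, with a range over all libraries of 135200 to 331500 CPM. Levels are given as CPM after scaling by trimmed means (TMM) over all libraries, and compare libraries for 1 gene, never 1 gene with another, since gene lengths were not used. The TMM factors themselves differed with treatment, with medians of 0.815 to 0.84 in the no DEN groups and 1.21 in nodules at 14 weeks. Dividing by library totals alone moved the median log2 fold change of all tested genes to between 0.191 and 0.568 against no DEN, raised the share of all tested genes called to 24.7%, 46.6% and 24.8% in NT liver at 8, 14 and 20 weeks and to 56.1% and 52.7% in nodules at 14 and 20 weeks, and moved the upward part of all calls from between 60.8% and 78.8% to between 91.9% and 94.3%. For the gene lists described here no upward call against no DEN was lost by that choice, and many downward calls were. Its effect on the members and on the listed genes that fell is given with their values.

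The tests used 1 value per rat and tissue, the sum of the counts of both its nodules in the case of tumor tissue, with n = 4 in every group. A gene was called when its log2 fold change was at least 0.5 in size with an adjusted p of at most 0.05 (edgeR quasi-likelihood test, Benjamini-Hochberg adjustment over all genes tested). Dlk1 and Lcn2 were below the filter on low counts in every comparison, which left 4 members tested. In NT liver against no DEN, 1 of 4 was called at 8 weeks (21.7% of all tested genes were called), 2 at 14 weeks (32.6%) and 1 at 20 weeks (18.1%). In nodules against no DEN, 2 of 4 were called at 14 weeks (39.1%) and 2 of 4 at 20 weeks (38.8%). With 4 members tested, counts of this size are not read as a result about the members, which differed in direction. At the stricter thresholds of 1 and 0.01 Gpc3 alone was called, in each of these 5 comparisons, beside 7.91%, 15.2% and 5.22% of all genes in NT liver at 8, 14 and 20 weeks and 18.7% and 17.4% in nodules at 14 and 20 weeks. All comparisons with no DEN at 1 time share the same 4 controls. In nodules against NT liver edgeR called no member and no gene at all (0%) at either time, while 1348 genes at 14 weeks and 2767 at 20 weeks had an unadjusted p under 0.05, Gpc3 at 20 weeks among them. DESeq2 called 24 and 908 genes there and again no member. With the rat as a block, 0% of genes were called at 14 weeks and 14.7% at 20 weeks, where 2 members were among them. Between the control groups at 8 and 20 weeks 0 of the 2 members tested were called, by edgeR or DESeq2, although Spink1 had an unadjusted p under 0.05 (0.374% of all genes were called).

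**Figure D1:**
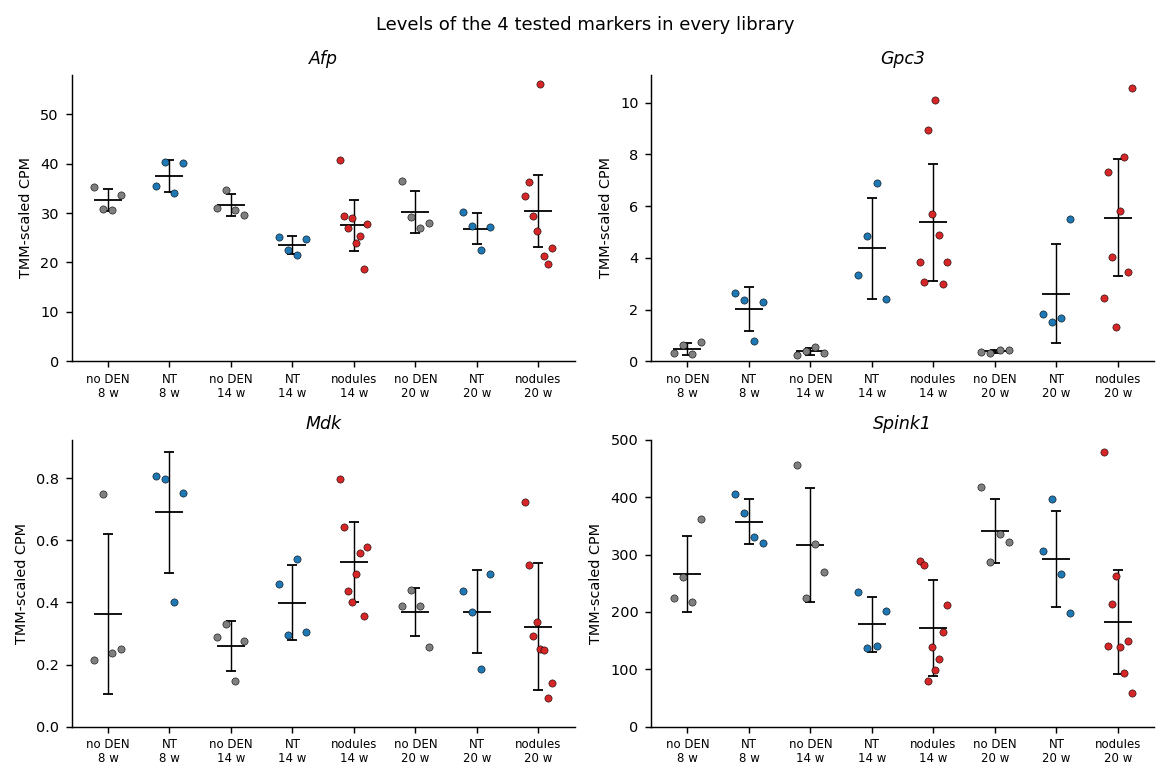
TMM-scaled CPM (y axis, linear, from 0) of Afp, Gpc3, Mdk and Spink1 in the 8 groups (x axis; w, weeks). Each point is a library, with 2 nodules per rat, and the bar and whiskers give mean and SD over 4 rats, nodules of a rat added. Gpc3 was at 0.768 CPM or more in every DEN-treated library and at 0.751 CPM or less in every no DEN library, whereas Afp lay between 18.7 and 40.7 CPM apart from 1 nodule at 56.2 CPM.

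Gpc3 was the member with the clearest rise. Its promoter is shown so that it can be set beside the very different one of Afp. The 250 bases before the RefSeq start (GRCr8, chrX:137157599-137157848, minus strand) contain 22 CpG, more than 85.3% of 27457 rat promoters of this length (median 6). Capitals mark the letters GGGCGG on either strand, the GC box bound by Sp1, found 4 times here and at least once in 32.4% of those promoters.

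Gpc3: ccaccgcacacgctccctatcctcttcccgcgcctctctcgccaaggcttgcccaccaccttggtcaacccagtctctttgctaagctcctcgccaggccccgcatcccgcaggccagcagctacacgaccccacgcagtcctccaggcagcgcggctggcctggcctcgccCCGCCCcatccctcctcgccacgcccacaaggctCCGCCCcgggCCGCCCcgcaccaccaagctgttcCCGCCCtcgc

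Without DEN, Gpc3 stood at 0.302, 0.618, 0.276 and 0.751 CPM at 8 weeks, at 0.251, 0.412, 0.545 and 0.309 CPM at 14 weeks, and at 0.341, 0.329, 0.437 and 0.43 CPM at 20 weeks. These are 6 to 18 read pairs per library, so the controls were detected but low. In NT liver it was 2.65, 2.37, 0.768 and 2.29 CPM at 8 weeks, a level that 3 of the 4 rats shared while rat H17 lay just above the highest control. At 14 weeks NT liver held 3.34, 4.86, 6.88 and 2.41 CPM. At 20 weeks it held 1.81, 1.51, 1.66 and 5.49 CPM, with rat H28 apart from the other 3. No DEN-treated rat overlapped its controls at any time. In NT liver upward separation of this kind was seen in 18.6%, 26.3% and 16.8% of tested genes at 8, 14 and 20 weeks.

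In NT liver the rise of Gpc3 over no DEN was 2.04 on the log2 scale (SE 0.43) at 8 weeks (edgeR quasi-likelihood, adjusted p = 0.00462), with means of 2.02 ± 0.849 CPM in NT liver and 0.487 ± 0.235 CPM in controls (SD, 4 rats in each). At 14 weeks it was 3.52 (SE 0.39, edgeR quasi-likelihood, adjusted p = 6.03e-05), or 11.5-fold, with 4.37 ± 1.95 CPM against 0.379 ± 0.129 CPM. At 20 weeks, after the injections had ended, it was 2.74 (SE 0.52, edgeR quasi-likelihood, adjusted p = 0.00465), and 2.08 without rat H28 (adjusted p = 0.000635). The difference in this rise between 14 and 8 weeks, 1.48, was not past the threshold (interaction, SE 0.66, edgeR quasi-likelihood, adjusted p = 0.163), nor was that between 20 and 14 weeks (-0.80, SE 0.76, adjusted p = 0.63, where 0.738% of all genes passed).

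In tumor nodules Gpc3 ranged from 3 to 10.1 CPM at 14 weeks (median 4.36, 8 nodules) and from 1.32 to 10.6 CPM at 20 weeks (median 4.93, 8 nodules). Every nodule lay above every control. Against no DEN the log2 fold change was 3.78 at both times (SE 0.39 at each, edgeR quasi-likelihood, adjusted p = 8.42e-05 at 14 weeks and 7.84e-05 at 20 weeks), or 13.8-fold. Upward separation of the groups was seen in 28% of tested genes at 14 weeks and 28.1% at 20 weeks. Against NT liver of the same rats the difference was 0.29 (SE 0.38, edgeR quasi-likelihood, adjusted p = 0.72) at 14 weeks and 1.07 (SE 0.47, adjusted p = 0.198) at 20 weeks. With the rat as a block, which uses that NT liver and nodules came from the same animal, the 20-week difference was 1.19 (SE 0.30, edgeR quasi-likelihood, adjusted p = 0.0304) and was called, in a fit that called 14.7% of all genes. The call of Gpc3 against no DEN held in every alternative tried at all 5 comparisons.

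From lowest to highest mean, Gpc3 ran from the 3 no DEN groups (0.379 to 0.487 CPM) over NT liver at 8 weeks (2.02), 20 weeks (2.62) and 14 weeks (4.37) to nodules at 14 weeks (5.37 ± 2.27) and 20 weeks (5.56 ± 2.27). Every DEN-treated rat lay above the controls of its time, rat H17 at 8 weeks only just, while rats within a DEN-treated group differed widely. Each group of DEN-treated tissue overlapped its neighbours in this order. Over the 32 values of rat and tissue, the genes most like Gpc3 among 10100 were Anxa1 (Pearson r = 0.97), Ezr (0.966) and Lgals3bp (0.965), given as a description, since these points share rats and treatment. Markers of several other cell types moved with Gpc3, in either direction. Of 8 hepatocyte markers 5 fell and 1 rose in nodules at 14 weeks and again at 20 weeks, and by library totals none fell and 1 rose at 14 weeks and 2 fell and 1 rose at 20 weeks. Of 8 endothelial markers 7 rose in each of the 5 comparisons with no DEN, and all 6 genes of cycling cells rose in each but NT liver at 20 weeks, where 3 did. Of stellate cell markers 6 of 7 tested rose in NT liver at 8 weeks, 7 of 8 at 14 weeks, where the other fell, and 4 of 7 at 20 weeks, and 6 of 8 rose in nodules at either time. In NT liver the T cell markers that rose were 6 of 6 at 8 weeks, 3 of the 4 tested at 14 weeks and 3 of the 5 tested at 20 weeks, and 4 of 6 rose in nodules at either time. All 7 measured markers of bile duct and progenitor cells rose in NT liver at 14 and 20 weeks and in nodules at both times, and 3 of 7 at 8 weeks. Of 3 tested neutrophil markers 3, 3 and 2 rose in NT liver at 8, 14 and 20 weeks. In nodules 1 of 3 did at 14 weeks and 0 of 3 at 20 weeks. Of 8 macrophage markers 2, 2 and 4 rose in NT liver at 8, 14 and 20 weeks and 3 and 4 in nodules, and of 3 tested B cell markers 2 rose in NT liver at 8 weeks and none in the other comparisons with no DEN. The shares of all tested genes called, in either direction, were 21.7%, 32.6% and 18.1% in NT liver at 8, 14 and 20 weeks and 39.1% and 38.8% in nodules at 14 and 20 weeks. The summed level of the bile duct and progenitor markers was 18.2 to 26.6 CPM in no DEN libraries, 32.8 to 99.1 CPM in NT liver and 56 to 228 CPM in nodules. The part of these cell types in the Gpc3 result was not tested, and in bulk tissue more cells of a type and more RNA per cell cannot be told apart.

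**Figure D2:**
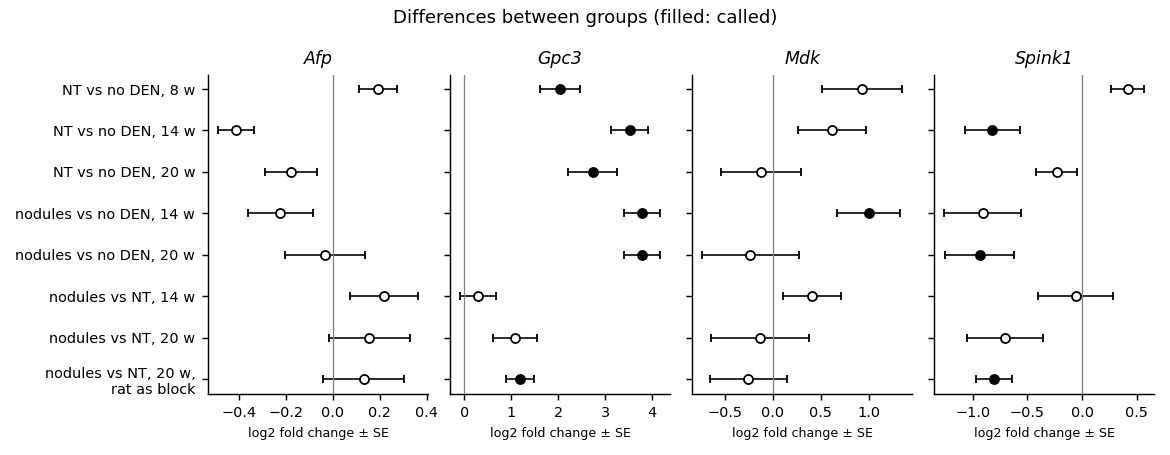
Log2 fold change (x axis, own range per panel) with SE from edgeR for each comparison (y axis) of Afp, Gpc3, Mdk and Spink1, n = 4 rats per group. Filled points were called (at least 0.5 in size, adjusted p at most 0.05). All 5 comparisons of Gpc3 with no DEN are filled and lie between 2.04 and 3.78, and no point of Afp is filled. With the rat as block, Gpc3 (1.19) and Spink1 (-0.81) are filled for nodules against NT liver at 20 weeks.

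Afp, the serum marker of human HCC and the classical oncofetal gene of the liver, was not called in any comparison with no DEN. Its promoter is shown because the liver factor HNF1 is known to act on it. Capitals mark the HNF1 half-site (GTTAAT or GTTAAC, either strand), found 2 times in this window, 135 and 62 bases before the start, and in 8.6% of rat promoters, and the TATA box (TATAAA, either strand), found 37 bases before the start and in 13.1%. No match overlaps another. The 250 bases (RefSeq, GRCr8, chr14:17875646-17875895, minus strand) hold 2 CpG and no GC box.

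Afp: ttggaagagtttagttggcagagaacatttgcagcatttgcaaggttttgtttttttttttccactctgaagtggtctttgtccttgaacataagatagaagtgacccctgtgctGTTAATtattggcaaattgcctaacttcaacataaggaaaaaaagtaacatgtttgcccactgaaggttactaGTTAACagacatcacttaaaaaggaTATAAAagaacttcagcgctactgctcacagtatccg

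Afp was readily detected in adult liver without DEN, with 533 to 866 read pairs per library. Controls held 35.3, 30.7, 30.7 and 33.6 CPM at 8 weeks, 31.1, 34.8, 30.7 and 29.7 CPM at 14 weeks, and 36.5, 29.2, 27.1 and 28 CPM at 20 weeks. NT liver held 35.4, 40.3, 34.1 and 40.1 CPM at 8 weeks, 25.2, 22.5, 21.5 and 24.8 CPM at 14 weeks, and 30.2, 27.3, 22.6 and 27.2 CPM at 20 weeks. At 14 weeks every NT liver thus lay below every control, a separation seen downward in 23.9% of tested genes, and at the other times the groups overlapped. Nodules ranged from 18.7 to 40.7 CPM at 14 weeks (median 27.4) and from 19.6 to 56.2 CPM at 20 weeks (median 27.9), around the levels of the controls.

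None of the 5 comparisons with no DEN was called. The log2 fold change in NT liver was 0.19 (SE 0.08, edgeR quasi-likelihood, adjusted p = 0.0874) at 8 weeks and -0.18 (SE 0.11, adjusted p = 0.261) at 20 weeks. At 14 weeks it was -0.41 (SE 0.08, edgeR quasi-likelihood, adjusted p = 0.00104), past the p threshold and under the fold threshold, and 0.0063 by library totals (adjusted p = 0.94), where NT liver (25.2 to 27.4 CPM) and controls (24.5 to 28.2 CPM) overlapped. In nodules it was -0.22 (95% confidence interval -0.54 to 0.09) at 14 weeks and -0.03 (-0.41 to 0.35) at 20 weeks, so a rise of more than 0.35 was outside the interval at either time. The change in NT liver differed between 8 and 14 weeks (interaction -0.61, SE 0.11, edgeR quasi-likelihood, adjusted p = 0.007, where 8.96% of all genes passed). Against NT liver the nodules stood at 0.22 (SE 0.15) at 14 weeks and 0.16 (SE 0.17) at 20 weeks, neither called.

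The direction of these small differences depended on the scaling. By library totals alone Afp was higher than without DEN in NT liver at 8 weeks (log2 fold change 0.39, edgeR quasi-likelihood, adjusted p = 0.00843) and in nodules at 20 weeks (0.46, adjusted p = 0.0372), both still under the fold threshold, and was 0.34 in nodules at 14 weeks (adjusted p = 0.0516). The median of all tested genes under the same scaling was 0.191, 0.505 and 0.568 in these 3 comparisons. The adult plasma protein genes beside Afp in the same gene cluster fell on the TMM scale. Albumin (Alb) fell by 0.88 (SE 0.10) and afamin (Afm) by 1.10 (SE 0.08) in nodules at 14 weeks, and the vitamin D-binding protein gene Gc fell by 0.82 (SE 0.10). All 3 were called in NT liver at 14 weeks and in nodules at both times, and Afm alone in NT liver at 20 weeks. By library totals only the calls of Afm in nodules were kept (-0.54 at 14 weeks and -0.67 at 20 weeks). Alb was then at -0.32 and -0.34 in nodules and -0.19 in NT liver at 14 weeks, and Gc at -0.25, -0.24 and -0.17, all under the fold threshold. Relative to albumin transcripts of the same library, which needs no scaling, Afp stood at 146 ± 13.6 counts per 1000000 Alb counts without DEN and 234 ± 60 in nodules at 14 weeks (SD, n = 4, ratio 1.6, exact 2-sided permutation p = 0.0286, the smallest that 4 against 4 rats allow, 0.0667 when adjusted over the 7 comparisons). At 20 weeks the ratio was 138 ± 24.2 without DEN and 244 ± 78.5 in nodules (1.77, with the same exact permutation p). At both times all 4 rats with nodules lay above the controls. In NT liver the ratio was 1.33 times that of controls at 8 weeks (exact permutation p = 0.0286), 1.14 times at 14 weeks (0.0857) and 1.1 times at 20 weeks (0.343).

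**Figure D3:**
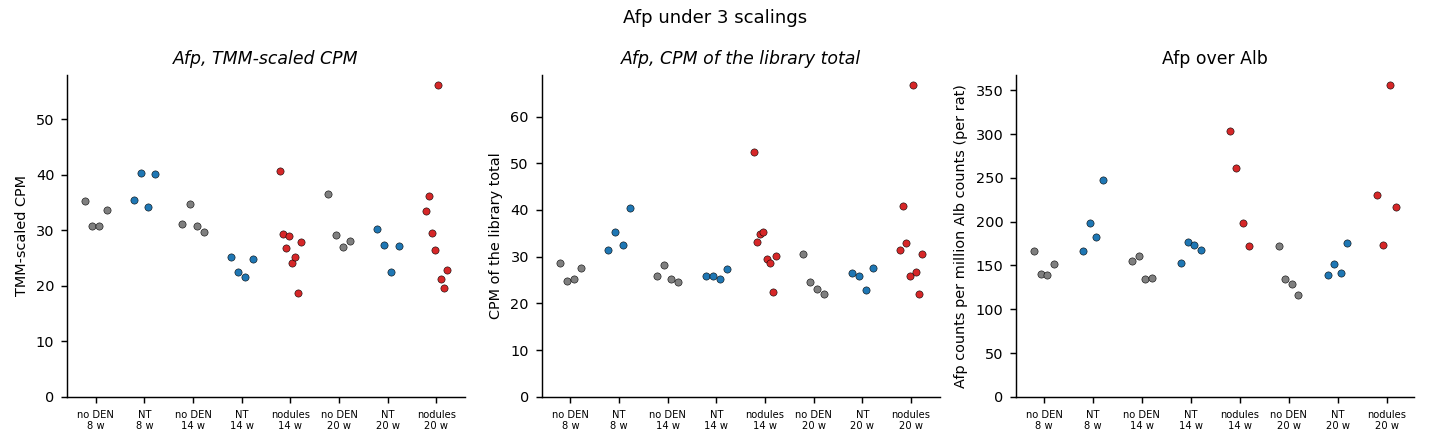
Afp in the 8 groups (x axis) under 3 scalings (y axes, linear, from 0): TMM-scaled CPM per library, CPM of the library total per library, and counts per 1000000 Alb counts per rat. Points of the nodules lie around the controls on the first scale, and on the third the 4 rats with nodules lie above the controls at 14 and 20 weeks.

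Known repressors and activators of Afp were followed as well. The hepatocyte markers that fell in nodules, given with Gpc3, moved beside them, and their part was not tested. Zhx2, the zinc fingers and homeoboxes factor whose loss raises Afp, H19 and Gpc3 in mice, was lower in NT liver at 8 weeks (9.55 ± 1.42 to 6.34 ± 1.53 CPM, log2 fold change -0.60, edgeR quasi-likelihood, adjusted p = 0.0299). In nodules it was -0.59 (SE 0.37) at 14 weeks and -0.50 (SE 0.19) at 20 weeks, neither called. Zbtb20, a zinc finger repressor of Afp, fell in nodules at 14 weeks (-0.93, SE 0.33) and stood at -0.22 (SE 0.18) in nodules at 20 weeks. Of 17 factors known to act on Afp, 7 fell and none rose in nodules at 14 weeks, and 6 fell and none rose at 20 weeks, beside 39.1% and 38.8% of all tested genes called. The median of the list was -0.48 and -0.38, against medians of all tested genes of 0.002 and 0.007. Among those that fell were the liver factors Cebpa (-0.99 and -1.08), Nr5a2 (-0.93 and -1.08) and, at 14 weeks, Zhx3 (-0.94, SE 0.26) (-0.47 at 20 weeks, not called). By library totals 5 rose and none fell at 14 weeks (56.1% of all genes called), and 3 rose and 2 fell at 20 weeks (52.7%), the genes that fell being Cebpa (-0.60) and Nr5a2 (-0.60). The call of Zhx2 in NT liver at 8 weeks was lost as well (-0.39), as was that of Zbtb20 in nodules at 14 weeks (-0.36), and at 20 weeks Zbtb20 turned to 0.28, not called. Cebpa and Nr5a2 are known as activators of liver genes, and Zhx3 is a relative of Zhx2.

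H19, the imprinted long RNA that shares fetal liver expression with Afp, rose in all 5 comparisons with no DEN. The rise was 1.86 on the log2 scale in NT liver at 8 weeks, 3.60 at 14 weeks and 3.87 at 20 weeks, and in nodules 3.91 (SE 0.35) and 4.35 (SE 0.61). In nodules at 14 weeks H19 stood at 32 ± 9.13 CPM, against 2.08 ± 0.904 CPM without DEN. Of 14 oncofetal genes in the files beside the members, H19 among them, only 5 to 7 were high enough to test against no DEN. In nodules at 14 weeks 5 of 7 rose and 1 fell (list median 2.74), and at 20 weeks 3 of 6 rose and 1 fell (2.22), beside 39.1% and 38.8% of all tested genes called at these times. The call of the gene that fell was lost by library totals. The largest rises beside H19 were those of Cd24 (3.94 and 4.43), a surface protein of progenitor cells, Lypd1 (3.87 at 14 weeks, not tested at 20 weeks) and Tff3 (2.74 and 3.54), a secreted trefoil peptide. The oncofetal genes Igf2bp1, Igf2bp2 and Lin28a, which encode proteins that bind RNA, and Hmga2, which encodes a chromatin protein, reached at most 13 read pairs in any library, and are named here after their values were seen.

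Genes for other serum or tissue markers of liver cancer moved in both directions. Of 18 tested in nodules, 8 rose and 4 fell at 14 weeks (list median 0.31) and 9 rose and 3 fell at 20 weeks (0.79), where 39.1% and 38.8% of all tested genes were called. By library totals 12 rose and 1 fell at 14 weeks (56.1% of all genes), and 11 rose and none fell at 20 weeks (52.7%). Akr1b8, an aldo-keto reductase, rose from 1.38 ± 0.262 to 371 ± 189 CPM in nodules at 14 weeks (log2 fold change 8.02, SE 0.52) and by 7.98 at 20 weeks. Its relative Akr1b10 rose by 7.67 and 6.10, gamma-glutamyltransferase (Ggt1), long used to mark altered foci of rat liver, by 6.09 and 6.36, and Anxa2, an annexin, by 3.89 and 3.92.

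Spink1 was the member that fell. RefSeq (GRCr8) lists 2 neighbouring rat genes, Spink1 and Spink1l, that share the older names Spink1 and Spink3, and 76.9% of the 20-base windows of one promoter occur unchanged in the other. Read pairs that match both were dropped in counting, and which of the copies the Spink1 and Spink3 rows stand for was not settled. Without DEN the Spink1 row held 225, 261, 217 and 361 CPM at 8 weeks, 455, 224, 318 and 270 CPM at 14 weeks, and 418, 286, 336 and 323 CPM at 20 weeks. In NT liver it held 406, 373, 330 and 321 CPM at 8 weeks, 234, 137, 140 and 202 CPM at 14 weeks, and 306, 397, 267 and 197 CPM at 20 weeks. At 8 weeks 2 of the 4 rats thus lay above the highest control, and at 14 weeks 3 of the 4 lay under the lowest.

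The log2 fold change of Spink1 in NT liver was 0.42 (SE 0.15, edgeR quasi-likelihood, adjusted p = 0.0519) at 8 weeks, -0.82 (SE 0.25, adjusted p = 0.0243) at 14 weeks and -0.23 (SE 0.19, adjusted p = 0.38) at 20 weeks. The change between 8 and 14 weeks was itself past the threshold (interaction -1.24, SE 0.31, edgeR quasi-likelihood, adjusted p = 0.0258) but not without the rats numbered F (-1.27, adjusted p = 0.0591), and the change back at 20 weeks was not (0.60, SE 0.35, adjusted p = 0.406). Nodules ranged from 78.7 to 289 CPM at 14 weeks (median 152) and from 58 to 479 CPM at 20 weeks (median 145). Against no DEN the fall was 0.91 at 14 weeks (log2 fold change -0.91, SE 0.35, edgeR quasi-likelihood, adjusted p = 0.0567, not called) and 0.94 at 20 weeks (-0.94, SE 0.32, adjusted p = 0.0297). Nodules stood lower than NT liver of the same rats at 20 weeks by 0.71 without the block (SE 0.35, edgeR quasi-likelihood, adjusted p = 0.251) and by 0.81 with it (SE 0.16, adjusted p = 0.00741, called). These values sat close to the threshold. A call was gained in NT liver at 8 weeks without the control H08 (0.59, adjusted p = 0.00311) and in nodules at 14 weeks without F06 (-1.25, adjusted p = 0.0145). The call in NT liver at 14 weeks was lost without rat H21 (adjusted p = 0.0634) or H22 (0.0639), and the call in nodules at 20 weeks without H26 (0.0776), H28 (0.0512) or the controls H13 (0.0716), H15 (0.0548) or H16 (0.0536). By library totals the fold changes were -0.41 in NT liver at 14 weeks and -0.50 in nodules at 20 weeks, neither called, and 0.61 in NT liver at 8 weeks, which was called (adjusted p = 0.00838).

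The genes most like Spink1 over the 32 values were the peroxisomal racemase Amacr (r = 0.935), Rmdn1 (0.93) and Nit2 (0.902). The Spink3 row held 1.6 to 9.41 CPM without DEN. It rose in NT liver at 8 weeks (log2 fold change 1.68, SE 0.30, edgeR quasi-likelihood, adjusted p = 0.00202) and fell in nodules against NT liver at 20 weeks with the block (-0.68, SE 0.17, adjusted p = 0.0174). The trypsins that Spink1 inhibits in the pancreas (Prss1, Prss2, Prss3, Try4 and Try10) reached at most 2 read pairs in any library. Markers of pancreatic acinar cells, which make much Spink1, moved in opposite directions. The elastase gene Cela1 fell from 7.58, 6.20 and 5.61 CPM without DEN at 8, 14 and 20 weeks to 0.987, 0.404 and 0.597 CPM in NT liver, and was under 1 CPM on average in nodules at either time (called in all 5 comparisons). The carboxypeptidase gene Cpa1 stood at 0.0355 CPM or less without DEN, at 0.12, 0.669 and 1.98 CPM in NT liver and at 5.84 CPM in nodules at 20 weeks, the time at which alone it was tested against no DEN, and called. Their part in the Spink1 values was not tested, nor was that of the hepatocyte markers that fell in nodules. The epidermal growth factor receptor gene Egfr, through which SPINK1 protein is reported to signal, fell by 2.14 in nodules at 14 weeks (153 ± 9.4 to 35.5 ± 11.9 CPM) and by 1.69 at 20 weeks. Ctrc, a chymotrypsin, rose by 3.85 and 4.46.

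Mdk was low, with 4 to 17 read pairs per library without DEN. Controls held 0.216, 0.751, 0.237 and 0.25 CPM at 8 weeks, 0.287, 0.33, 0.145 and 0.274 CPM at 14 weeks, and 0.39, 0.439, 0.389 and 0.258 CPM at 20 weeks. NT liver held 0.808, 0.8, 0.401 and 0.752 CPM at 8 weeks, 0.46, 0.294, 0.539 and 0.305 CPM at 14 weeks, and 0.437, 0.369, 0.184 and 0.491 CPM at 20 weeks. At 8 weeks rat H06 was the only control within the range of NT liver, and at 14 and 20 weeks controls and NT liver overlapped. Nodules ranged from 0.356 to 0.797 CPM at 14 weeks (median 0.525), each above every control of that time, and from 0.0928 to 0.725 CPM at 20 weeks (median 0.27). Upward separation of rats with nodules from controls was seen in 28% of tested genes at 14 weeks.

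Mdk rose in nodules at 14 weeks (log2 fold change 1.00, SE 0.32, 0.259 ± 0.0795 to 0.531 ± 0.13 CPM, edgeR quasi-likelihood, adjusted p = 0.0286). The call was lost without the nodules of H22 (1.02, with an adjusted p just above the threshold) or the controls H09 (0.0564), H11 (0.0846) or H12 (0.0639). In nodules at 20 weeks the log2 fold change was -0.23 (SE 0.50, 95% confidence interval -1.35 to 0.88). The difference between both times was not past the threshold (interaction -1.24, SE 0.62, edgeR quasi-likelihood, adjusted p = 1, where 0.0862% of all genes passed). In NT liver it was 0.93 (SE 0.42, edgeR quasi-likelihood, adjusted p = 0.106) at 8 weeks, and 1.52 without the control H06 (adjusted p = 0.0139) or 1.11 without H17 (adjusted p = 0.0436). It was 0.61 (SE 0.36) at 14 weeks, not called, but 1.03 by library totals (adjusted p = 0.0207). At 20 weeks it was -0.12 (SE 0.41), and 0.24 without rat H26, whose library was the deepest, neither called.

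Midkine binds proteoglycans and receptors, and 11 of the 12 genes listed for them and for its relative pleiotrophin (Ptn) were tested in nodules at 14 weeks, where 5 rose and 2 fell (median 0.48), and 10 at 20 weeks, where 5 rose and 1 fell (0.50). The shares of all tested genes called were 39.1% and 38.8%. By library totals 8 rose and 1 fell (56.1% of all genes), and 7 rose and 1 fell (52.7%). Ptprz1, a receptor phosphatase that binds midkine, rose by 3.41 and 3.77 from 0.0716 ± 0.0464 CPM, the receptor kinase Ltk rose by 5.43 at 14 weeks, and Itga4 rose by 1.10 at 20 weeks (0.48 at 14 weeks, not called). Lrp1, a scavenger receptor, fell by 1.37 and 1.06. Pleiotrophin itself rose by 0.97 and 0.92.

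The other glypicans and the enzymes that act on them moved in both directions. Of 8 tested in nodules 3 rose and 1 fell at 14 weeks, and 3 rose and 2 fell at 20 weeks, beside 39.1% and 38.8% of all tested genes called. By library totals 4 and 3 rose and none fell, beside 56.1% and 52.7% of all genes. Gpc1 rose by 2.25 and 2.14 and Gpc2 by 1.91 and 2.24 in nodules at 14 and 20 weeks, both from under 0.25 CPM. Gpc4, the glypican with the most reads here, stood at -0.47 and -0.31 (0.10 and 0.20 by library totals, none called), and Gpc5 was at 0 in 6 of 8 groups. The sulfatase Sulf1 rose by 1.23 and 1.60, and Notum, which releases glypicans from their lipid anchor, was at -1.03 (SE 0.40, not called) at 14 weeks and fell by 1.00 at 20 weeks.

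Dlk1 went from no reads to a few. Its promoter is shown for its many CpG, the sites at which DNA methylation can silence a gene. It holds 41 CpG in 250 bases, more than 99% of rat promoters (RefSeq, GRCr8, chr6:134192347-134192596, plus strand). Capitals mark 2 GC boxes.

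Dlk1: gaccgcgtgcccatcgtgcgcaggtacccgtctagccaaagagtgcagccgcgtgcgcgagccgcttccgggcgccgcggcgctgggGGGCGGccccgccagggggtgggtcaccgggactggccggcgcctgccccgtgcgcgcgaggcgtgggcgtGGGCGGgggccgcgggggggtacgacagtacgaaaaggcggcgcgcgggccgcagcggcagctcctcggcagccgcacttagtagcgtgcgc

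All 12 no DEN libraries and all 4 NT livers at 8 weeks had 0 counts of Dlk1 in 479965621 counted pairs, which allows a level of up to 0.00736 CPM (3 counts over all 16 libraries, counting error only). At 14 weeks NT liver had 5, 5, 5 and 4 counts. The 8 nodules at 14 weeks had 5 and 1 (F06), 24 and 13 (H21), 15 and 13 (H22), and 0 and 5 (H23). At 20 weeks NT liver had 0, 1, 0 and 1 counts, and the nodules 1 and 10 (F03), 0 and 0 (H25), 7 and 2 (H26), and 2 and 3 (H28). Reads were therefore present in 11 of 12 DEN-treated libraries at 14 weeks and in 8 of 12 at 20 weeks.

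Against a floor of 3 counts over the control group, the mean of Dlk1 over rats was at least 5.13-fold higher in NT liver at 14 weeks (0.142 ± 0.025 CPM, SD, n = 4) and at least 9.63-fold higher in nodules (0.266 ± 0.213 CPM). Both differences had an exact 2-sided permutation p of 0.0286, the smallest possible, or 0.0858 when adjusted over the 6 comparisons of the gene. With nodule 1 of each rat alone the exact permutation p in nodules was 0.143, since 1 nodule had no reads. Without the filter on low genes, edgeR gave adjusted p values of 0.00254 and 0.0213 over all genes, and DESeq2 0.00303 and 0.000478. In nodules at 20 weeks Dlk1 was at least 2.66-fold higher than the controls (0.0965 ± 0.0784 CPM, exact permutation p = 0.143), and in NT liver at 20 weeks it had 2 counts in all, under the floor. Nodules held 1.96 times the level of NT liver at 14 weeks by pooled counts (counting interval 1.17 to 3.43, exact permutation p = 0.429 over rats) and 12.3 times at 20 weeks (3.08 to 107, exact permutation p = 0.143). These intervals cover counting error only and not the spread between rats. The pooled ratio at 20 weeks leans on the deepest library, NT liver of H26, which had 160622633 counted pairs and 0 counts of Dlk1. With each rat weighted equally the contrast at 20 weeks was smaller, as NT liver averaged 0.0143 CPM and the nodules averaged 0.0965 CPM.

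Genes beside Dlk1 in its imprinted region were low too. Begain rose by 2.41 and 2.65 in nodules at 14 and 20 weeks, and Dio3, which encodes the enzyme that inactivates thyroid hormone, rose by 1.51 at 14 weeks (SE 0.52) and was at 0.71 (SE 0.65) at 20 weeks. The paralog Dlk2 had at most 1 read pair in any library.

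Lcn2 was near the detection limit in every group. Controls had 3, 1, 0 and 1 counts at 8 weeks, 0, 1, 4 and 1 at 14 weeks, and 0, 1, 1 and 0 at 20 weeks. NT liver had 8, 2, 1 and 1 counts at 8 weeks, 4, 4, 7 and 6 at 14 weeks, and 3, 3, 10 and 9 at 20 weeks. Nodules had 4 to 15 counts at 14 weeks and 3 to 9 at 20 weeks. Every nodule held at least 3 counts and the controls held 4 at most.

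In CPM, Lcn2 was 0.164 ± 0.0428 in nodules and 0.0259 ± 0.03 without DEN at 20 weeks (SD, n = 4), and all 4 rats lay above the controls (exact permutation p = 0.0286, 0.1 adjusted over its 7 comparisons). By pooled counts the ratio was 6.67, with a counting interval from 1.74 to 56.9 because the controls held 2 counts in all. NT liver at 20 weeks was 3.93 times the controls (interval 0.98 to 34.2, exact permutation p = 0.0286). At 14 weeks the ratio was 3.99 in nodules (1.73 to 11.3, exact permutation p = 0.0571) and 2.8 in NT liver (1.09 to 8.49, exact permutation p = 0.0857), and at 8 weeks it was 1.88 (0.617 to 6.82, exact permutation p = 0.6). By library totals the exact permutation p was 0.0286 for both tissues at 14 weeks. Without the filter, edgeR gave adjusted p values over all genes of 0.0508 in nodules at 14 weeks and 0.0187 at 20 weeks, and DESeq2 0.0424 and 0.0451. Neutrophil genes, markers of a cell type that stores Lcn2 protein, summed to 1.5 to 6.14 CPM without DEN, 4.9 to 19.7 CPM in NT liver and 3.56 to 36.2 CPM in nodules over 8 genes. The medians were 2.24 to 3.74 CPM without DEN and 12.3, 5.18 and 7.31 CPM in NT liver at 8, 14 and 20 weeks. In nodules they were 4.55 and 5.31 CPM at 14 and 20 weeks. Of the 8 genes, Elane and Camp were at 0 in all controls at 8 and 20 weeks. Their part in the Lcn2 counts was not tested. Of 10 tested genes linked to Lcn2, 1 rose and 2 fell in nodules at 14 weeks and 1 rose and 1 fell at 20 weeks, beside 39.1% and 38.8% of all tested genes called. By library totals 4 rose and none fell (56.1% of all genes), and 5 rose and 1 fell (52.7%). Its endocytic receptor Lrp2 fell by 0.98 and 1.05 in nodules at 14 and 20 weeks, the factor Cebpd rose by 0.96 and 0.53, and Il1rn fell by 0.53 at 14 weeks (-0.41 at 20 weeks, not called). By library totals Lrp2 was called at 20 weeks alone, and Il1rn was at 0.0351 and 0.0643, neither called.

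**Figure D4:**
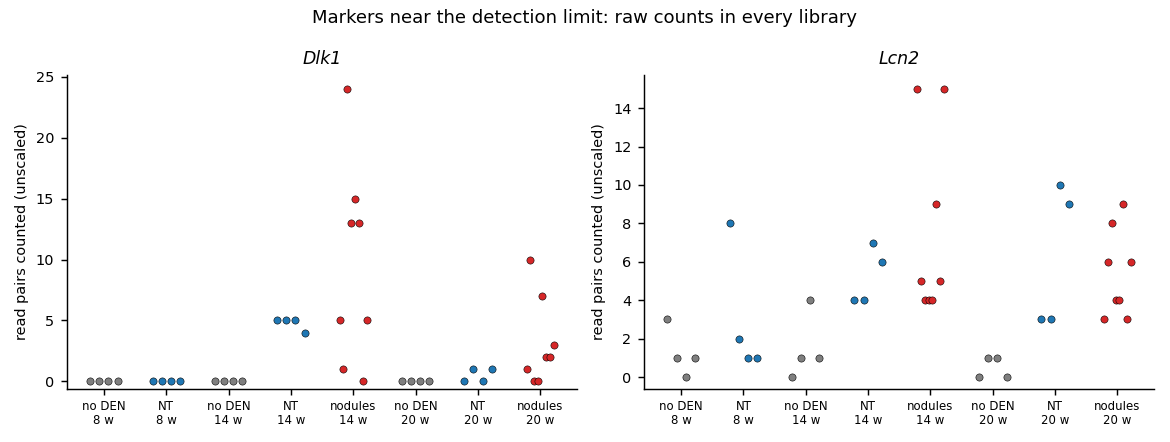
Unscaled read pairs counted for Dlk1 and Lcn2 (y axis) in every library of the 8 groups (x axis). Dlk1 is at 0 in all 16 libraries of the no DEN groups and of NT liver at 8 weeks and reaches 24 in a nodule at 14 weeks, and Lcn2 stays at or below 15 throughout.

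In place of Golm1, its closest relative could be read. Casc4, also known as Golm2, rose in nodules at 14 weeks (log2 fold change 1.33, SE 0.30, 0.515 ± 0.183 to 1.34 ± 0.263 CPM, edgeR quasi-likelihood, adjusted p = 0.00511) and was at 0.81 (adjusted p = 0.0554) at 20 weeks. Of 12 resident Golgi genes 1 rose and 4 fell in nodules at 14 weeks and none rose and 4 fell at 20 weeks, beside 39.1% and 38.8% of all genes called. The same 4 fell at both times, the trimming enzyme Man1a1 (-1.08 and -0.88), Man2a1 (-0.69 and -0.57), Tgoln2 (-0.64 and -0.61) and B4galt1 (-0.57 and -0.69). By library totals 3 of the 12 rose and none fell at 14 weeks (56.1% of all genes), and 2 rose and none fell at 20 weeks (52.7%). Golgb1, a golgin, rose at both times (0.58 and 0.60), B4galt1 was at 0.0032 at 14 weeks, and Casc4 was called at 20 weeks too (1.30).

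Gpc3 differed between both nodules of a rat by 1.25- to 2.07-fold at 14 weeks and by 1.35- to 3.06-fold at 20 weeks. Set against NT liver of the same rat, as log2 of CPM + 0.5, 6 of 8 nodules had more Gpc3 at 14 weeks (-0.46 to 0.82) and 6 of 8 at 20 weeks (-0.60 to 1.96). Spink1 was lower than in NT liver in 7 of 8 nodules at 20 weeks (-1.76 to 0.65), and nodules of a rat differed by up to 3.4-fold. At 14 weeks 4 of 8 were lower.

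On the same log2 scale Afp was above NT liver of its rat in 7 of 8 nodules at 14 weeks (-0.40 to 0.68) and in 4 of 8 at 20 weeks (-0.46 to 1.30). Mdk was above it in 7 of 8 (-0.07 to 0.43) and in 4 of 8 (-0.74 to 0.39). For Afp the nodules of a rat differed by 1.05- to 1.49-fold at 14 weeks and by 1.08- to 2.64-fold at 20 weeks, where nodule 1 of rat H26 held 56.2 CPM and nodule 2 held 21.2 CPM. No other library exceeded 40.7 CPM. In 6 of 8 rats the nodule with more Gpc3 was the one with less Spink1, and in 5 of 8 it was the one with more Afp. In 8 of 8 rats the nodule with more Spink1 had more Amacr. Amacr was picked for its likeness to Spink1 over values that include these nodules, so this agreement is partly built in. These are counts over 8 rats and were not tested.

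**Figure D5:**
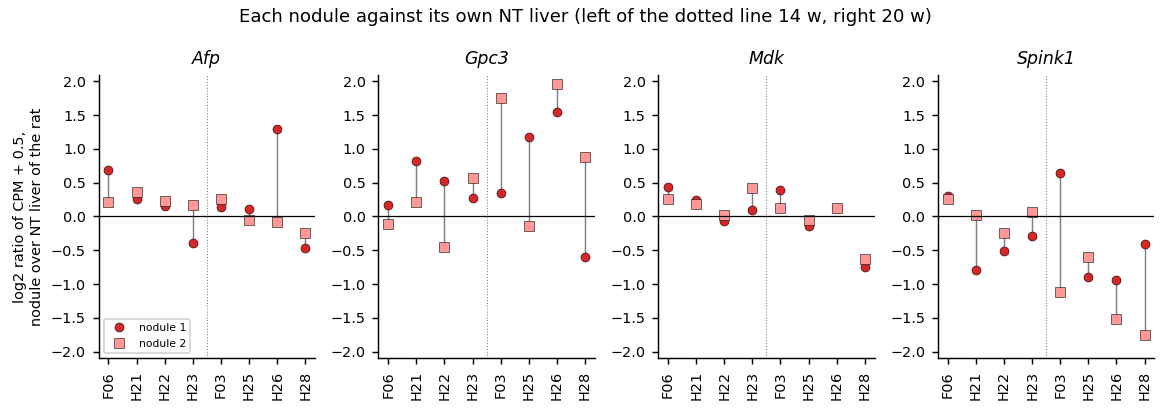
Log2 ratio of each nodule to NT liver of the same rat (y axis, CPM + 0.5) for Afp, Gpc3, Mdk and Spink1, with rats on the x axis (4 at 14 weeks, then 4 at 20 weeks). Circles are nodule 1 and squares nodule 2. Spink1 lies below 0 in 7 of 8 nodules at 20 weeks, Gpc3 lies above 0 in 6 of 8, and nodule 1 of H26 stands out for Afp.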

How the data were processed

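Raw gene counts of 40 libraries, 1 file each, were deposited by the authors, who aligned stranded read pairs from poly(A) RNA to rn6 with STAR 2.7.1a and counted them with HTSeq, reverse strand, dropping multiply aligned pairs. Summary lines that name no gene (32.8% to 45.4% of pairs per library) were left out. Groups and rats came from the labels. Members, lists and tests were chosen with earlier results of these data known.

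Genes were filtered with filterByExpr, scaled by TMM and tested with edgeR 4.0.16 (robust quasi-likelihood, R 4.3.3), 2 groups per fit, after the fit had been tested on simulated data. Dlk1 and Lcn2 were compared by exact 2-sided permutation of CPM means. NT liver and nodules of a rat pair by animal (same-rat correlation of deviations 0.368 to 0.545; for H21, 0.406, and 0.44 with another rat), so the blocked fit is given where it changed a call. From each list, up to 4 called genes with the largest fold change in nodules were named, with paralogs of members, Zhx2 and Zbtb20 always. For members with a mean of at least 1 CPM, the 3 genes of highest correlation of log2 CPM (prior count 2) were named. Promoters are from RefSeq (GRCr8), found for 5 of 7 members, and no protein sequences were used. Rats are separate animals. Pairs carry no molecular identifiers, so depth gives counting error only.

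Alternatives were DESeq2 1.42.0, RLE scaling, no filter, all groups in 1 fit, leaving out rats, rats numbered F or a nodule, stricter thresholds (1 and 0.01), and, added after seeing the data, library totals, Afp over Alb and settings for Dlk1 and Lcn2.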

Additional observations from a re-analysis of the deposited data

Results flagged for a closer look

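Of 44 sets of a member in a group, 5 held a library that stood apart from the rest by Dixon's criterion, which chance alone meets in about 1 in 20. Afp was 56.2 CPM in nodule 1 of rat H26 at 20 weeks, and Gpc3 was 5.49 CPM in NT liver of H28 at 20 weeks. Mdk was 0.751 CPM in the control H06 at 8 weeks and 0.401 CPM in NT liver of H17 at 8 weeks. Lcn2 was 0.259 CPM in NT liver of F09 at 8 weeks, from 8 read pairs.

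The effect of DEN in NT liver differed between 8 and 14 weeks for Afp, by -0.61 on the log2 scale, and for Spink1, by -1.24. The second passed the threshold with all rats (edgeR quasi-likelihood, adjusted p = 0.0258) and not among rats numbered H alone (adjusted p = 0.0591).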

How the results depend on the processing

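Of 522 fold changes of members recomputed under the alternatives, 469 kept direction and side of the threshold, 20 lost and 12 gained a call, and 21 turned direction, none of them called before or after. Gpc3 was called against no DEN in every alternative at all 5 comparisons. The cause of the other changes was not tested.

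The number of members called changed by more than 1.5 times in these cases. In NT liver at 8 weeks it was 2 by library totals. Under the stricter thresholds it was 1 in NT liver at 14 weeks and 1 in nodules at 14 and 20 weeks, where fewer genes can pass by construction. In nodules at 14 weeks it was 5 with DESeq2, which also tested Dlk1 and Lcn2 and called 4871 of all genes (edgeR 4425). There it was 4 with each nodule as its own value, which treats nodules of a rat as replicates, and 1 with nodule 1 alone. In nodules at 20 weeks it was 1 by library totals, with nodule 1 alone and with each nodule as its own value. With the rat as replicate block, nodules against NT liver at 20 weeks gave 2 (Gpc3 and Spink1) in place of 0, while all genes went from 0 to 1693. DESeq2 called 908 of all genes there and 24 at 14 weeks. The block changed no other call of a member. Without the rats numbered F the interaction of 8 and 14 weeks gave 1 in place of 2. Leaving out 1 rat at a time gave 1 to 2 in NT liver at 8 and 14 weeks and in nodules at 20 weeks, 1 to 3 in nodules at 14 weeks, and 0 in both comparisons of nodules with NT liver.

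By library totals 8 directions turned. Against no DEN, Afp became 0.0063 and 0.0346 in NT liver at 14 and 20 weeks and 0.34 and 0.46 in nodules, and Mdk 0.11 in NT liver and 0.22 in nodules at 20 weeks. In nodules against NT liver, Spink1 became 0.0591 at 14 weeks and Mdk 0.083 at 20 weeks. With nodule 1 alone Afp was 0.12 against no DEN at 20 weeks. With nodule 2 alone Spink1 was 0.0757 at 14 weeks and Afp -0.0011 at 20 weeks, both against NT liver. Leaving out 1 rat at a time gave -0.34 to 0.24 for Mdk in NT liver and -0.14 to 0.11 for Afp in nodules at 20 weeks. Against NT liver it gave -0.26 to 0.0077 for Spink1 at 14 weeks, and -0.0217 to 0.32 for Afp and -0.51 to 0.37 for Mdk at 20 weeks. The interaction of 14 and 20 weeks in nodules was 0.0099 for Gpc3 without the filter and 0.0631 for Spink1 without the rats numbered F.

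Depth limits Dlk1, Lcn2 and Mdk, which had at most 30 read pairs in any library.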

Other observations

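In 7 of 8 rats the nodule with more Gpc3 had more Anxa1. Anxa1 was picked for its likeness to Gpc3 over values that include these nodules, so this agreement is partly built in. The nodule with more Gpc3 had less Alb in 7 of 8 rats, and in 7 of 8 the higher summed level of bile duct and progenitor markers. For Krt19 alone the count was 3 of 8. In 7 of 8 rats the nodule with more Spink1 had the lower summed level of those markers, and in 7 of 8 more Alb. For Afp the count against the same markers was 4 of 8, and against Lcn2 7 of 8. Afp was most like Myeov2 (Pearson r = 0.812), Polr2j (0.805) and Ndufb2 (0.802) over the 32 values of rat and tissue. Nodule 1 of F06, with 40.7 CPM of Afp, was also the library with the largest share of read pairs outside annotated exons (34.5%, against 21.5% to 24% in controls).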
